A study of Mus musculus with 11 samples.

Results

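Basal and myoepithelial marker genes were followed in mammary tumours of female mice. The set was a list of 10 genes: the keratins Krt5, Krt14, Krt15 and Krt17, the contractile genes Acta2, Myh11 and Cnn1, the transcription factor Trp63, the hemidesmosome collagen Col17a1 and the oxytocin receptor Oxtr. Every probe that the platform annotation assigned to these symbols was used, 20 of 45281 probes on the array, and the 10 genes stood among 19057 genes with a symbol.

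Tissue came from 6 PyMT and 5 PyMT/SIRT6 tumours, all taken at 12 weeks of age, with 1 array per tumour. Both groups carry the polyoma virus middle T oncogene as a transgene and formed tumours spontaneously. The PyMT/SIRT6 group differs by the Sirt6BAC allele, a large genomic clone that supplies extra, functionally competent SIRT6, a chromatin deacylase. The labels do not name the promoter that drives the oncogene, nor whether all tumours are from separate animals, so the p-values below speak for the spread among these tumours. Sirt6 itself, on its brightest probe, lay between 7.64 and 7.88 on the log2 intensity scale in PyMT arrays and between 8.19 and 8.64 in PyMT/SIRT6 arrays.

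The mammary duct is a bilayer. Luminal cells line the lumen, and an outer basal layer of myoepithelial cells rests on the basement membrane, where it contracts to eject milk and is regarded as a barrier that invasive tumours lose. Myoepithelial cells combine an epithelial identity, seen in basal keratins, p63 and hemidesmosomes, with a smooth muscle apparatus of actin, myosin and calponin. In these bulk tumours fewer cells of a type and less RNA per cell cannot be told apart.

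Probes were first separated by brightness. No background subtraction was visible in the deposited intensities. Therefore 1504 probes for olfactory and vomeronasal receptors, which mammary tumours are not expected to express, served as the level of a probe with little target. The 95th percentile of their means was 7.32 (an intensity of 159.8). Member probes at or below it are called near background, those at least 1 log2 unit above it, from 8.32, bright, and the rest intermediate. By this measure 7 member probes were bright, 7 intermediate and 6 near background, while over the whole array 16.2% of probes were bright and 56.0% near background.

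The bright probes were those of Krt14, Krt17, 4 of the 6 Acta2 probes and 1 of 2 Trp63 probes. Krt5, Krt15, all 3 Col17a1 probes, 1 of 2 Myh11 probes and 1 of 2 Oxtr probes were intermediate. The only Cnn1 probe and the other probes of Acta2, Myh11, Trp63 and Oxtr were near background, with single values of 7.12 to 7.37. Probes without visible signal say nothing about the gene: the same tumours gave Acta2 values of 11.29 to 14.0 on ILMN_2693895 and of 7.13 to 7.26 on ILMN_1236619. Levels of different probes are therefore not set against each other.

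None of the markers passed the test between genotypes. In limma's fit over all 14726 tested features 0 of 9 tested members had a Benjamini-Hochberg adjusted p under 0.05, where 0.0136% of all features did in either direction and 0.00% were lower. The tenth gene, Cnn1, was too dim to be tested there. The markers were chosen with earlier results of these data known, so the shares below describe them and are no test. All 9 tested members had a mean below that of PyMT tumours, against 53.1% of all features. These 9 include Oxtr, which was close to the background level and differed by only −0.01. The median difference of the 9 was −0.29 on the log2 scale against −0.01 over all features. At an unadjusted p under 0.05, 4 of 9 were lower (Krt15, Acta2, Krt5 and Col17a1), against 2.39% of all features. That count of 4 was 1 without PyMT/SIRT6 replicate 1 and 2 without PyMT replicate 4, and 1 without the arrays high in skeletal muscle RNA described below. With every probe tested separately, 0 of 20 passed after adjustment (0.00663% of all probes passed), and 10 of 20 were lower at an unadjusted p under 0.05 (2.70% of all probes). These 10 include the 4 bright Acta2 probes and all 3 Col17a1 probes. Probes of the same gene are repeated measures, so the 10 are not independent. Nor are the 4 genes, as Acta2, Krt5 and Col17a1 correlated with each other at Pearson r from 0.83 to 0.96 over the 11 arrays.

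The differences were small on the near-background probes. Over the 7 bright probes they ran from −0.99 to −0.05, over the 7 intermediate probes from −0.41 to −0.01, and over the 6 near-background probes from −0.05 to 0.04. The low end of the bright range came from the 4 Acta2 probes (−0.99 to −0.72). The other bright probes, of Krt14 (−0.29), Krt17 (−0.17) and Trp63 (−0.05), lay nearer to 0 than the best probes of Col17a1 (−0.41), Myh11 (−0.40) and Krt5 (−0.36), which were intermediate. All bright and intermediate probes had a mean below that of PyMT tumours, as had 2 of the near-background probes, together 16 of 20 against 51.1% of all probes. Here too, several probes measure the same gene, and the markers were chosen with earlier results of these data known.

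**Figure D1:**
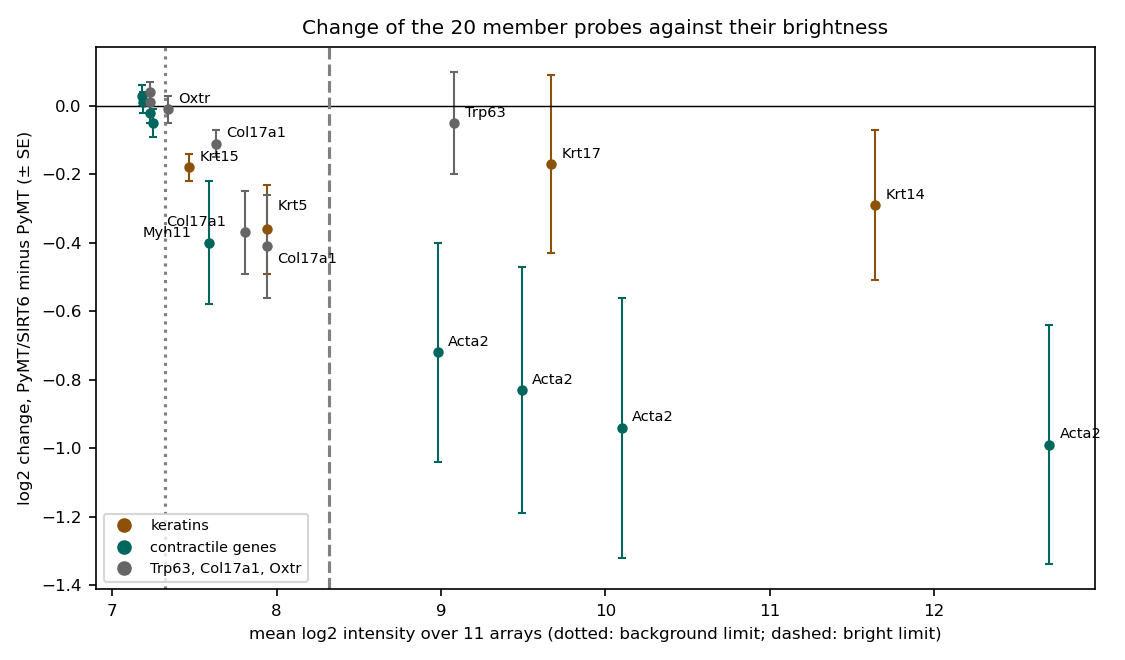
Log2 difference between genotypes (PyMT/SIRT6 minus PyMT, bars ± SE of limma) of each of the 20 member probes, plotted against the probe's mean log2 intensity over 11 arrays. Near-background probes, left of the dotted line, sit between −0.05 and 0.04, while the 4 bright Acta2 probes sit between −0.99 and −0.72.

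Among the contractile genes Acta2, which encodes smooth muscle alpha-actin, differed most. On its brightest probe, ILMN_2693895, PyMT arrays ran from 12.12 through a median of 13.13 to 14.0, and the PyMT/SIRT6 arrays read 11.29, 12.1, 13.06, 11.84 and 12.51. PyMT replicates 2, 3 and 4, at 14.0, 13.55 and 13.85, stood above all other arrays, and 3 of the 5 PyMT/SIRT6 arrays lay below the lowest PyMT array, so the groups overlapped. The geometric mean intensity was 9051 in PyMT (n = 6) and 4572 in PyMT/SIRT6 tumours (n = 5), or 0.505-fold. This is a log2 difference of −0.99 ± 0.37 (SE), with an adjusted p of 0.983 in limma. Leaving out single arrays gave −1.21 to −0.77.

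The other 3 bright Acta2 probes gave a similar ordering of tumours. Their differences were −0.94 ± 0.38 (ILMN_2923445), −0.83 ± 0.36 (ILMN_2710354) and −0.72 ± 0.32 (ILMN_2710353), each with an adjusted p of 0.979 in limma over all probes. Across the 11 arrays these 4 probes correlated with each other at Pearson r from 0.96 to 1.0, a description over probes of the same transcript. The mean over all 6 Acta2 probes differed by only −0.58, since it takes in the 2 probes without visible signal.

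Acta2 belongs to a class of genes that serum response factor binds at CArG boxes, and its promoter shows 2 related elements. In the 250 bases before the start that RefSeq annotates for GRCm38.p6, a search was made for the CArG box (CC, then 6 bases of A or T, then GG) and for forms with 1 base of this core changed; both patterns read the same on either strand. The windows of Acta2 (chr19:34255374-34255623, minus strand) and of Myl9 (chr2:156775214-156775463, plus strand) are shown because both hold a match and both genes were high in the same tumours, as described below. Both are printed from 5′ to 3′ with the matches in capitals.
Acta2: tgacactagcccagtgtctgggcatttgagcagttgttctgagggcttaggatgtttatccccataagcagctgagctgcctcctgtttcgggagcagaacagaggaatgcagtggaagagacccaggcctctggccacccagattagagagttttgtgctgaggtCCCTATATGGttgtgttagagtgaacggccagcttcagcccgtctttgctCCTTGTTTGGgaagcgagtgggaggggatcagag
Myl9: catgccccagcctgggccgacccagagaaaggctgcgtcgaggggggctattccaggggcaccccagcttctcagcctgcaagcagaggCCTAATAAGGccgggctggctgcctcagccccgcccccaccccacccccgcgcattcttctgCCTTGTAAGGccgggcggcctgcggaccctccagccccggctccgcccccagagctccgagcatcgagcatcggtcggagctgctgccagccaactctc

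In the Acta2 window both matches, which begin 84 and 34 bases before the annotated start, carry 1 changed base, whereas the first of the pair in Myl9 is an exact CArG box. Among all 32851 promoter windows, 1.47% held an exact box and 8.59% held a box or a form with 1 change. Of the 10 markers 6 had a window (Acta2, Cnn1, Krt5, Krt14, Col17a1 and Oxtr), and Acta2 was the 1 with a match. Among the other contractile genes 3 of 14 with a window had a match (Myl9, Vcl and Srf), and Mylk, the gene closest to Acta2 across the arrays, had none. A match describes the letters in the window and is not evidence of binding in these tumours.

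Myh11, the smooth muscle myosin heavy chain, had 1 probe above the background level. On ILMN_2622217 PyMT arrays ran from 7.31 through a median of 7.63 to 8.42, and PyMT/SIRT6 arrays read 7.26, 7.18, 7.62, 7.37 and 7.43. PyMT replicates 4, 2 and 5, at 8.42, 8.3 and 7.83, lay above all PyMT/SIRT6 arrays, and the remaining 3 PyMT arrays lay within the range of the other genotype. The difference was −0.40 ± 0.19 (limma adjusted p = 0.983), and it was −0.88 after normexp background subtraction. The second probe, ILMN_1224007, was near background (0.03 ± 0.03). Cnn1, the actin-binding protein calponin, read 7.17 to 7.37 in PyMT arrays and 7.16 to 7.27 in PyMT/SIRT6 arrays, above the background level on only 2 arrays, so its level cannot be followed here.

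Some other contractile genes were among the genes most like Acta2 across tumours. By Pearson correlation over the 11 arrays, among all tested genes with a symbol outside the marker set, the 5 most like Acta2 were Mylk (myosin light chain kinase, r = 0.949), Myl9 (the smooth muscle regulatory light chain, r = 0.931), Wnt5b (a WNT ligand, r = 0.924), Suclg2 (a succinate-CoA ligase subunit, r = 0.922) and Actg2 (smooth muscle gamma-actin, r = 0.904). These are descriptions over arrays that include the genotype difference. The 5 genes were picked as the highest of all tested genes, so the size of their coefficients describes that choice. Within the 6 PyMT arrays r was 0.94 for both Mylk and Myl9, 0.95 for Actg2, 0.87 for Wnt5b and 0.85 for Suclg2.

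Mylk ran from 9.85 to 11.79 in PyMT arrays and from 9.29 to 10.78 in PyMT/SIRT6 arrays, and Myl9 from 8.2 to 9.83 and from 7.94 to 8.95. Actg2 read 9.6, 9.58 and 9.22 in PyMT replicates 2, 3 and 4, and 7.6 to 7.82 in the other PyMT arrays. PyMT/SIRT6 replicate 3, at 8.92, was the highest of its genotype, as for Acta2. These 3 genes differed between genotypes by −0.68 ± 0.36, −0.63 ± 0.32 and −0.72 ± 0.42, none with an adjusted p below 0.983 in limma.

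**Figure D2:**
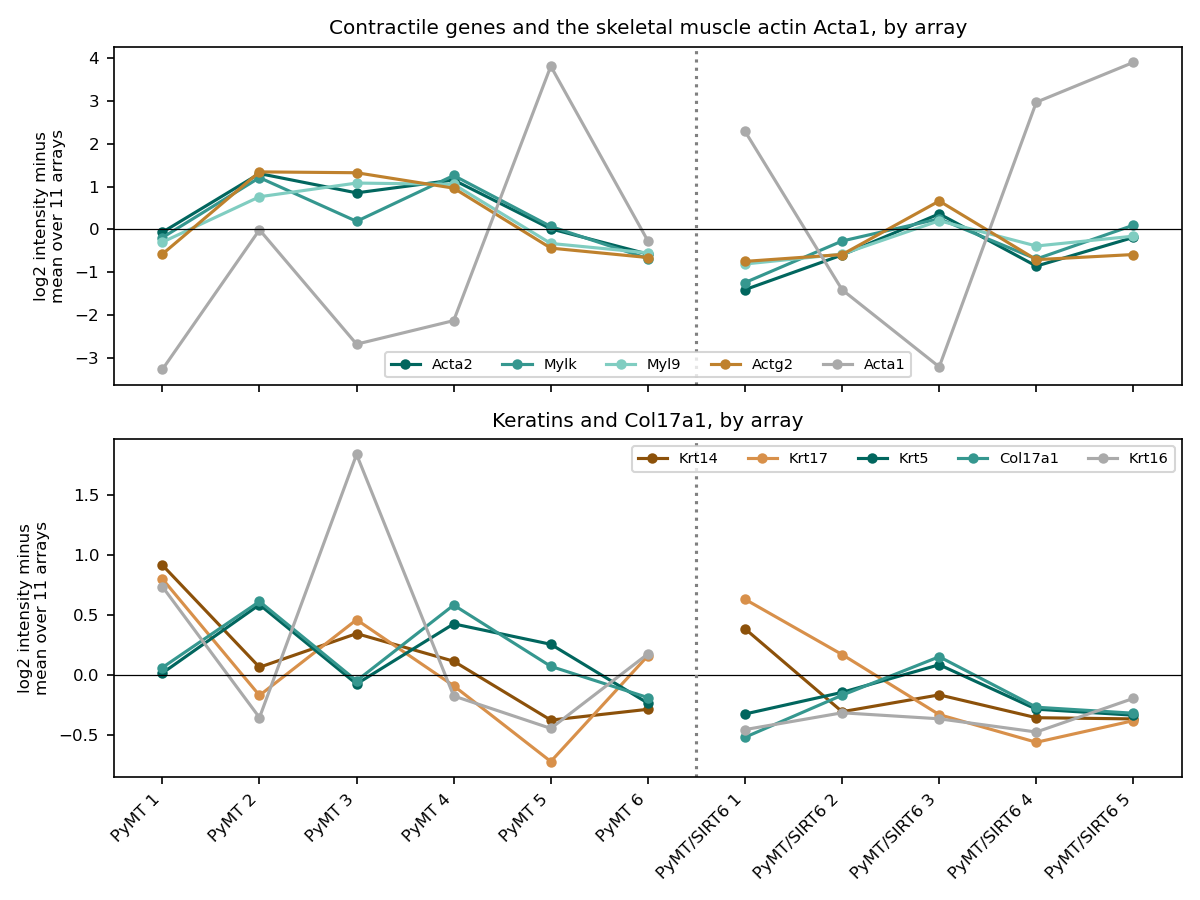
Log2 intensity of single genes on each of the 11 arrays, minus the gene's mean over all arrays. In the upper panel Acta2, Mylk, Myl9 and Actg2 are above their means in PyMT replicates 2 to 4 (Mylk least in replicate 3), while the skeletal muscle actin Acta1 peaks in other arrays; in the lower panel Krt14 and Krt17 peak in PyMT replicate 1, Krt5 and Col17a1 in PyMT replicates 2 and 4, and the epidermal Krt16 in PyMT replicate 3.

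Over the whole list of other smooth muscle contractile genes and their regulators 0 of 16 tested members passed, with 12 lower and 4 higher and a median difference of −0.08. By unadjusted p the leading genes were the myosin phosphatase inhibitor Ppp1r14a (−0.08 ± 0.03), the actin cross-linker Flna (−0.30 ± 0.15), Myl9 and Mylk, of which Ppp1r14a alone was under 0.05 (adjusted p = 0.983 in limma). Ppp1r14a was dim, at 7.25 to 7.5 over all arrays. The widely used cytoskeletal genes Tpm1 (−0.07 ± 0.12) and Actn1 (0.02 ± 0.16) had differences within their standard error.

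Acta2 and Myh11 are also expressed by pericytes and vascular smooth muscle, and Acta2 by activated fibroblasts. Of 11 mural cell markers with a probe 2 were near background, and their summed intensity ran from 2239 to 4165 in PyMT arrays and from 2259 to 3762 in PyMT/SIRT6 arrays. Desmin, Des, which skeletal muscle also expresses, read 9.53 to 10.99 in the 4 muscle-rich arrays described below and 7.36 to 7.89 in the others. Without Des the sum of the other 10 genes ran from 2029 to 2399 and from 1882 to 2200. All summed intensities given here include the background of each probe, whose limit was 159.8. Background makes up most of the sum without Des, so its narrow range does not show a steady mural content. The pericyte marker Rgs5 read 7.6 to 8.42 in PyMT arrays and 7.71 to 8.4 in PyMT/SIRT6 arrays, and its correlation with Acta2 over the arrays was 0.00. Rgs5 was chosen after its values were seen, and for no other mural marker was this correlation computed. Of the mural list 6 of 9 tested members were lower, and by unadjusted p the leading genes were the channel subunit Kcnj8 (−0.13 ± 0.05), the adhesion molecule Mcam (−0.26 ± 0.12), the G-protein regulator Rgs4 (−0.09 ± 0.05) and Des (1.04 ± 0.73). Of 12 tested fibroblast genes 11 were higher (median 0.13), with Dpt at 0.35 ± 0.16, Mfap5 at 0.51 ± 0.27, Col5a1 at 0.25 ± 0.16 and Lum at 0.38 ± 0.25. The summed intensity of the 13 fibroblast genes with a probe, 2 of them near background, ran from 3688 to 7126 in PyMT arrays. In PyMT/SIRT6 arrays it ran from 3836 to 8238. None of the tested genes of either list passed, and the part of either cell type in the Acta2 difference was not tested.

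Skeletal muscle RNA was plain in several tumours, as the summed intensity of 18 muscle markers ran from 3223 to 112333 in PyMT arrays and from 3311 to 110653 in PyMT/SIRT6 arrays. It was high in PyMT replicate 5 and in PyMT/SIRT6 replicates 1, 4 and 5. The skeletal actin Acta1, a paralogue of Acta2, read 14.45, 12.93, 13.61 and 14.54 in these 4 arrays, where Acta2 read 12.71, 11.29, 11.84 and 12.51. The 3 arrays highest in Acta2 were not among them. Without them, with 5 PyMT and 2 PyMT/SIRT6 arrays left, the differences nearer to 0 than over all arrays were those of Acta2 (−0.65), Krt5 (−0.18), Col17a1 (−0.21) and Myh11 (−0.37), and Oxtr was at 0.017. Those of Krt14 (−0.47), Krt17 (−0.31), Krt15 (−0.24) and Trp63 (−0.21) were further from 0. Of the muscle genes 15 of 17 tested were higher in PyMT/SIRT6 tumours, with a median of 1.17, and 0 passed. With the mean of the muscle markers as a covariate and all arrays kept, Acta2 was at −0.87 and Myh11 at −0.42. Col17a1 was then at −0.36, Krt5 at −0.34, Krt14 at −0.20 and Krt15 at −0.18. Trp63 was at −0.11, Krt17 at −0.02 and Oxtr at −0.01. The part of muscle RNA in the marker differences beyond these values was not tested.

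Basal keratins showed smaller differences than Acta2, and Krt14 and Krt17 had another order of tumours. Krt14, the type I keratin that marks the basal layer, read 12.56, 11.71, 11.99, 11.76, 11.27 and 11.36 in PyMT replicates 1 to 6, and 12.03, 11.34, 11.48, 11.29 and 11.28 in the PyMT/SIRT6 arrays. PyMT replicate 1 and PyMT/SIRT6 replicate 1 were the highest pair, and the groups overlapped over most of their range. The difference was −0.29 ± 0.22 (limma adjusted p = 0.983), or 0.817-fold. Without PyMT replicate 1 it was −0.14, and without PyMT/SIRT6 replicate 1 it was −0.43.

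Krt17, a keratin of basal cells and of stressed or proliferating epithelium, had the same leading tumours. PyMT arrays ran from 8.95 through a median of 9.7 to 10.47, the highest again in replicate 1, and PyMT/SIRT6 arrays read 10.3, 9.84, 9.34, 9.11 and 9.29. The difference was −0.17 ± 0.27 (limma adjusted p = 0.983). Leaving out PyMT replicate 1 gave −0.02, and leaving out PyMT/SIRT6 replicate 1 gave −0.35, the ends of the range over single arrays. With the mean of the skeletal muscle markers as a covariate it was −0.02, whereas without the 4 muscle-rich arrays it was −0.31. Krt14 and Krt17 correlated at r = 0.82 over the 11 arrays.

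Krt5, the type II partner of Krt14 in basal filaments, was measured by an intermediate probe. PyMT arrays ran from 7.71 through a median of 8.08 to 8.53, and PyMT/SIRT6 arrays read 7.62, 7.8, 8.03, 7.66 and 7.61. All 5 PyMT/SIRT6 arrays were below the PyMT mean and 3 were below the lowest PyMT array. The difference was −0.36 ± 0.14 (adjusted p = 0.983 in limma), or 0.778-fold, and −0.65 after normexp background subtraction. PyMT replicates 2 and 4, at 8.53 and 8.37, were highest, as for Acta2 and Myh11 and unlike Krt14.

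Krt15, a basal keratin also known from hair follicle stem cells, was the only marker whose groups did not overlap. PyMT arrays ran from 7.47 through a median of 7.55 to 7.67, and PyMT/SIRT6 arrays read 7.28, 7.27, 7.39, 7.46 and 7.46. Of all tested features 0.197% lay lower in every PyMT/SIRT6 than in any PyMT array. The nearest arrays of the groups read 7.47 and 7.46, and PyMT/SIRT6 replicates 1 and 2 lay below the background level of 7.32. The difference was −0.18 ± 0.05 (adjusted p = 0.983 in limma). It was −0.49 after normexp background subtraction, and no alternative gave any marker an adjusted p below 0.238.

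**Figure D3:**
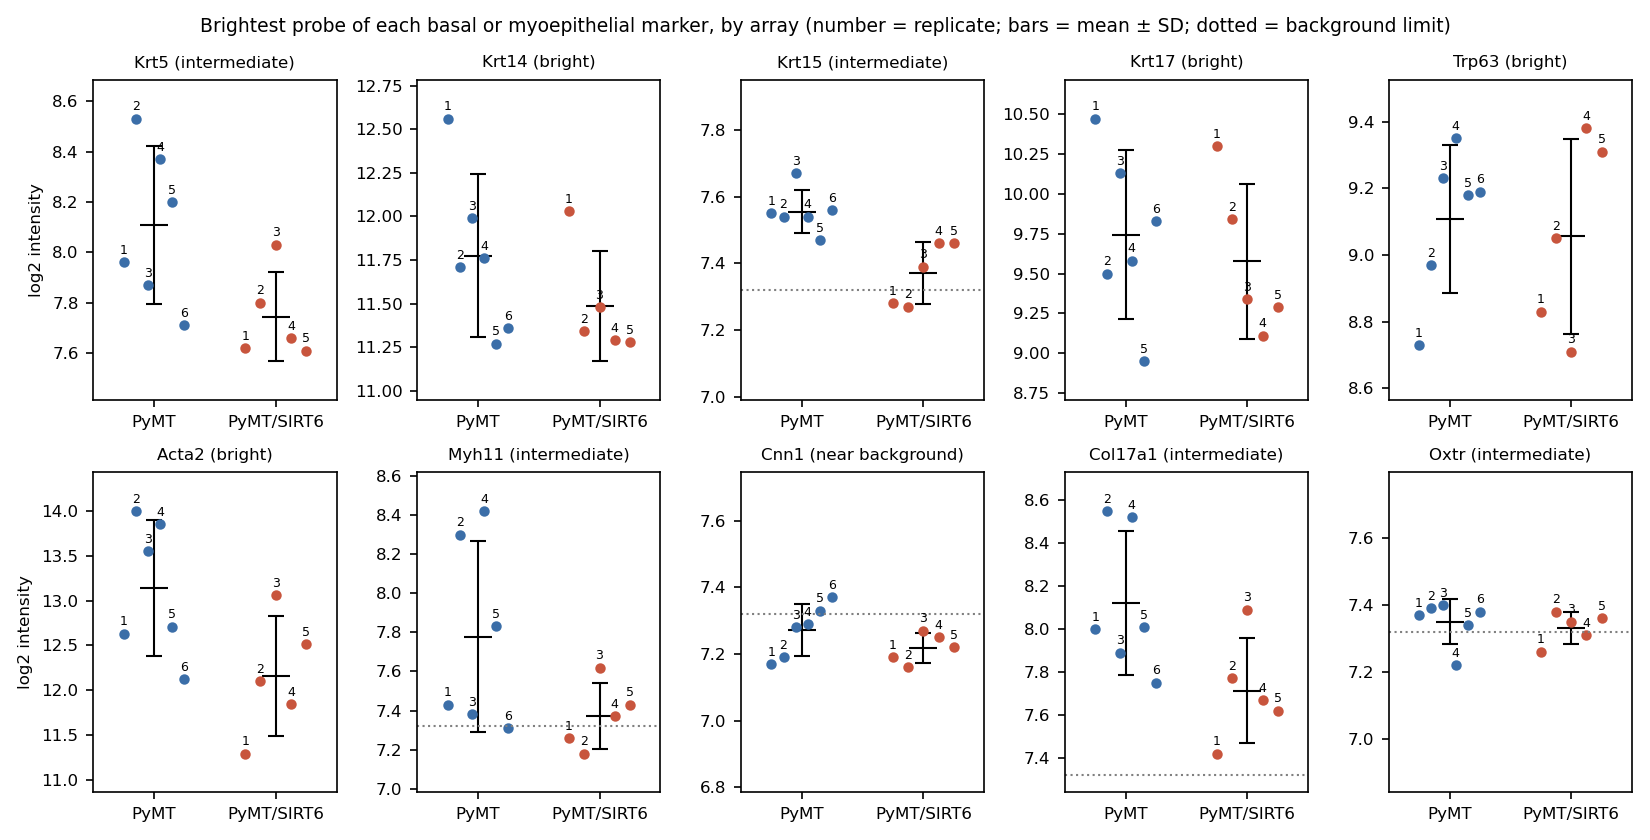
Log2 intensity of the brightest probe of each of the 10 markers on every array, with replicate numbers, mean ± SD per genotype and the background level of 7.32 as a dotted line where it falls within the axis, whose range differs between panels. Krt15 alone has groups that do not overlap; Krt14 and Krt17 share their highest tumour in each genotype, and Acta2, Myh11, Krt5 and Col17a1 have PyMT replicates 2 and 4 as their highest pair.

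Across tumours the markers thus formed patterns that crossed the division into keratins and contractile genes. Krt5 correlated with Col17a1 at r = 0.96, with Myh11 at 0.91 and with Acta2 at 0.83 over the 11 arrays, but with Krt14 at 0.13 and Krt17 at −0.23. Within the 6 PyMT arrays the values were 0.94, 0.95 and 0.74, and −0.12 and −0.55. Krt14 correlated with Acta2 at 0.16 and with Trp63 at −0.52. These coefficients describe 11 tumours that share the genotype contrast, and the genes were compared on 1 probe each.

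**Figure D4:**
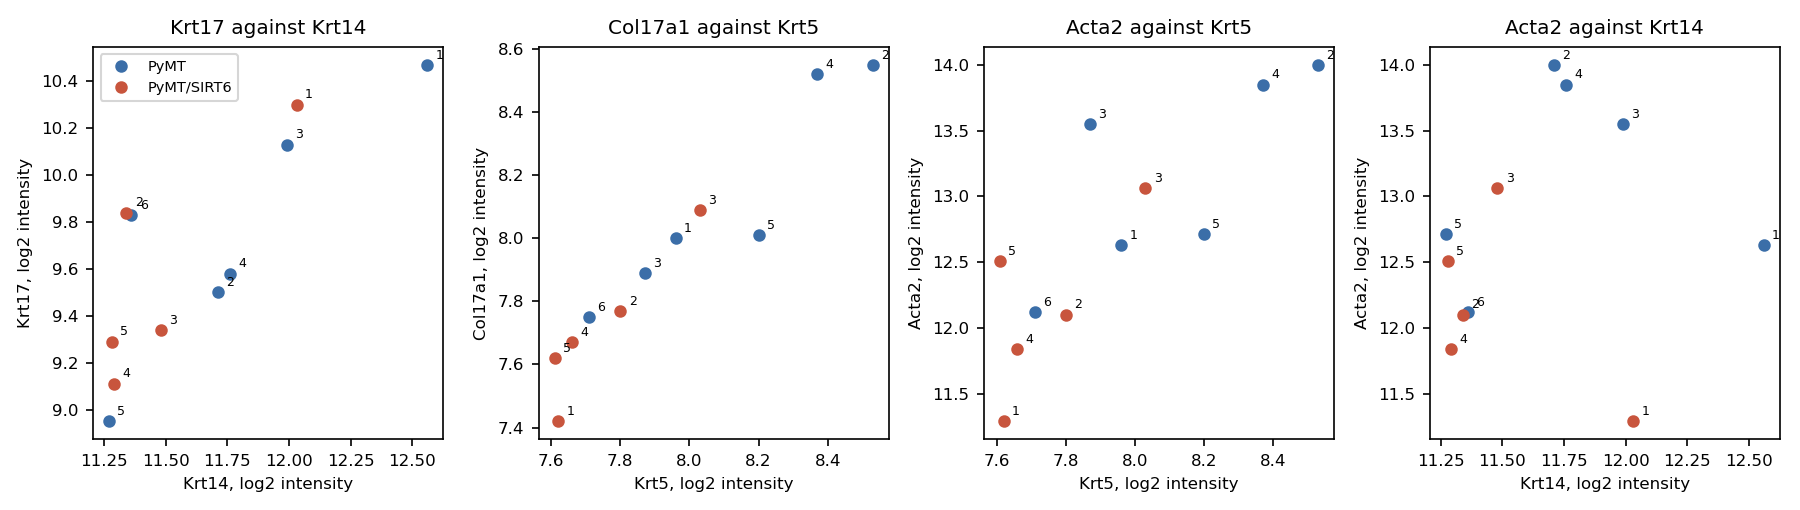
Pairs of markers plotted against each other on the log2 intensity scale, 1 point per array with its replicate number. Krt17 follows Krt14 (r = 0.82), and Col17a1 (r = 0.96) and Acta2 (r = 0.83) follow Krt5, while Acta2 against Krt14 (r = 0.16) shows no such order.

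By the same measure as above, the 5 genes most like Krt14 were Aurkb (the mitotic kinase Aurora B, r = 0.946), Cenpn (a centromere protein, r = 0.925), Sema3b (a secreted semaphorin, r = 0.925), Fignl1 (an ATPase of DNA repair, r = 0.92) and Ckap2 (a spindle-associated protein, r = 0.915). Within the 6 PyMT arrays the 5 coefficients ran from 0.95 to 0.99. Aurkb ran from 8.05 to 9.05 in PyMT arrays and from 8.1 to 8.6 in PyMT/SIRT6 arrays, and differed by −0.12 ± 0.17 between genotypes. The list was picked as the highest of all tested genes, so the size of these coefficients is a description of that choice.

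As a mean over probes that were not near background, the 4 keratin probes lay at 9.29 ± 0.23 (SD, n = 6) in PyMT tumours. In PyMT/SIRT6 tumours they lay at 9.04 ± 0.17 (SD, n = 5). The 5 contractile probes, 4 of them for Acta2, lay at 10.12 ± 0.69 (SD, n = 6) and 9.35 ± 0.53 (SD, n = 5). The contractile mean was lower by 0.78 and the keratin mean by 0.25 on the log2 scale, without a test of either. Both ranges overlapped between genotypes, at 9.28 to 10.96 against 8.76 to 10.12 for contractile and 8.97 to 9.63 against 8.88 to 9.31 for keratin probes. The classes differ in brightness, as the Krt5, Krt15 and Myh11 probes were intermediate and the others bright. After normexp background subtraction Krt5 differed by −0.65, Krt15 by −0.49, Krt14 by −0.30 and Krt17 by −0.19. Acta2 was then at −1.0 and Myh11 at −0.88. The part of probe brightness in the gap between the classes was not tested.

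Squamous epidermis also expresses Krt5, Krt14, Krt15 and Krt17, and its markers were highest in 1 tumour. The summed intensity of 16 epidermal and hair follicle markers, of which 5 were near background, reached 7607 in PyMT replicate 3, with a PyMT median of 3497 and a range of 2872 to 3976 in PyMT/SIRT6 arrays. Probe background makes up much of these sums outside that tumour. In PyMT replicate 3 Krt10 read 11.71, the cornified envelope gene Lor 9.18 and Krt16 9.57. PyMT/SIRT6 replicate 4 was second for Krt10 (10.23), Lor (8.13) and Krtdap, a keratinocyte differentiation gene (8.0). Krt16 was second highest, at 8.47, in PyMT replicate 1, the tumour highest in Krt14 and Krt17. Over the 11 arrays Krt16 correlated with Krt14 at r = 0.54 and with Krt17 at 0.57, and within the 6 PyMT arrays at 0.56 and 0.75. Krt10 correlated with Krt14 at 0.27 over the 11 arrays and at 0.26 within the PyMT arrays. Involucrin, Ivl, was near background on all arrays. Of the tested epidermal genes 10 of 11 were lower in PyMT/SIRT6 tumours (median −0.18), led by Sprr1a (−0.15 ± 0.04), Krt79 (−0.18 ± 0.08), Krt16 (−0.66 ± 0.33) and Krt6b (−0.42 ± 0.23), and 0 passed. Without PyMT replicate 3 the keratin differences were −0.41 for Krt5, −0.25 for Krt14, −0.16 for Krt15 and −0.09 for Krt17. Whether probes of Krt14, Krt16 and Krt17, which are close paralogues, detect each other's RNA was not tested.

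Trp63, whose protein p63 is the master transcription factor of basal epithelium, did not follow either pattern. On ILMN_1216742 PyMT arrays ran from 8.73 through a median of 9.18 to 9.35, and PyMT/SIRT6 arrays read 8.83, 9.05, 8.71, 9.38 and 9.31. High and low tumours occurred in both genotypes, and the lowest PyMT array was replicate 1, the tumour highest in Krt14 and Krt17. The difference was −0.05 ± 0.15 (limma adjusted p = 0.985), and its sign turned when PyMT/SIRT6 replicate 1 (0.005) or 3 (0.035) was left out. The other probe was near background.

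Col17a1, the transmembrane collagen of hemidesmosomes, which anchor basal cells to the basement membrane, was measured by 3 intermediate probes. On ILMN_2879995 PyMT arrays ran from 7.75 through a median of 8.01 to 8.55, and PyMT/SIRT6 arrays read 7.42, 7.77, 8.09, 7.67 and 7.62. PyMT replicates 2 and 4 were highest and PyMT/SIRT6 replicate 1 lowest, with 3 of 5 PyMT/SIRT6 arrays below the lowest PyMT array. The difference was −0.41 ± 0.16 (adjusted p = 0.983 in limma), and −0.76 after normexp background subtraction. The other probes differed by −0.37 ± 0.12 and −0.11 ± 0.04 in the fit over all probes, and the 3 probes correlated at r from 0.95 to 0.97.

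Other hemidesmosome and basement membrane genes had differences on both sides of 0. The integrin subunits of the hemidesmosome, Itga6 and Itgb4, differed by 0.05 ± 0.09 and −0.16 ± 0.29, and the linker proteins Dst and Plec by 0.03 ± 0.05 and 0.03 ± 0.34. Of the basal adhesion list 0 of 11 tested members passed, 7 were lower and 4 higher, and the median was −0.11. By unadjusted p the leading genes were P-cadherin, Cdh3 (−0.13 ± 0.05), galectin-7, Lgals7 (−0.50 ± 0.19), integrin alpha 3, Itga3 (−0.19 ± 0.11), and the desmosomal Pkp1 (−0.11 ± 0.13). Lgals7 was bright, from 11.52 to 12.35 in PyMT arrays and from 11.12 to 11.9 in PyMT/SIRT6 arrays, or 0.706-fold.

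Among other genes used as basal markers 0 of 12 passed, 7 lower and 5 higher. The leading ones were Snai2, a repressor of luminal genes (−0.13 ± 0.05, adjusted p = 0.983 in limma), podoplanin, Pdpn (−0.33 ± 0.19), the ErbB ligand Nrg1 (0.27 ± 0.16) and the chemokine Cxcl14 (−0.20 ± 0.13). Nrg1 read 8.22 and 8.27 in PyMT/SIRT6 replicates 1 and 2, and between 7.33 and 7.73 in the remaining arrays of both genotypes.

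Oxtr, through which oxytocin triggers myoepithelial contraction, could not be followed. Its better probe, ILMN_2543061, read 7.22 to 7.4 in PyMT arrays and 7.26 to 7.38 in PyMT/SIRT6 arrays, close to the background level on every array, and differed by −0.01 ± 0.03. Its sign turned with array weights (0.007), without PyMT/SIRT6 replicate 1 (0.003) and without the 4 muscle-rich arrays (0.017).

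Of 19 luminal markers with a probe, which define the other layer of the mammary duct, 5 were near background (Epcam, Esr1, Pgr, Cd24a and Ehf). The luminal keratin Krt8 was bright. It read 12.23 to 13.4 in PyMT arrays and 12.29 to 12.95 in PyMT/SIRT6 arrays, and 0 of 14 tested luminal genes passed, with 9 lower, 5 higher and a median of −0.07. By unadjusted p E-cadherin, Cdh1 (−0.27 ± 0.15), Foxa1 (−0.21 ± 0.14), Krt7 (−0.18 ± 0.13) and Cldn4 (−0.20 ± 0.17) came first. With the luminal list mean as a covariate the Acta2 difference was −0.97 and that of Krt5 −0.32. Of 4 tested adipocyte genes 3 were lower, and Lpl, Lep, Cidec and Adipoq differed by −0.25 to 0.08.

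**Figure D5:**
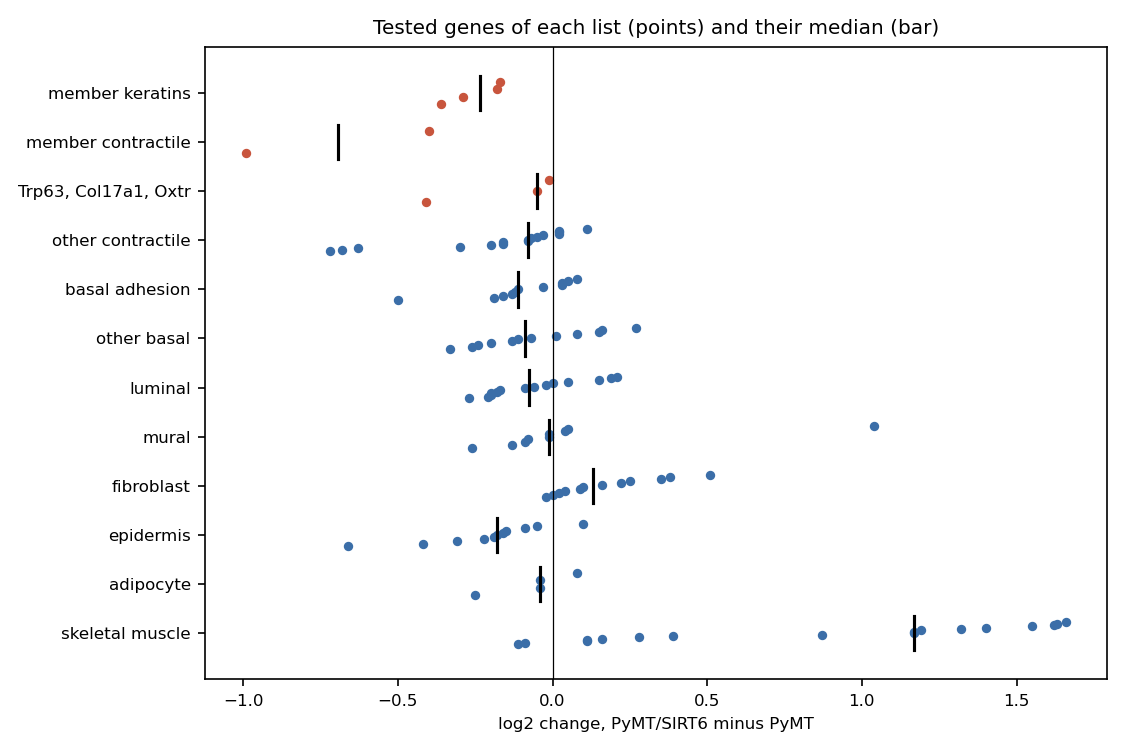
Log2 difference between genotypes (PyMT/SIRT6 minus PyMT) for the tested genes of each list, 1 point per gene with the list's median as a bar, the markers themselves in red. The 2 tested contractile markers lie at −0.99 and −0.40, while the other contractile genes have a median of −0.08 and skeletal muscle genes of 1.17.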

How the data were processed

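Values are those of a series table that the authors deposited, 1 column per array of Illumina Mouse WG-6 v2.0 BeadChips. Biotinylated cRNA was made from total RNA, per the labels' protocols. The deposited values are intensities on a linear scale, and their background treatment and normalization by the authors are named by no source used here. After sorting, arrays agreed within 1.08%, the median was 157.5 to 157.6 on each array and the lowest value was 116.7, so quantiles were already shared and no background subtraction was visible. If no background was subtracted, fold changes of dim probes are understated. Precision is limited by the number of arrays.

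Intensities were put on the log2 scale. Symbols came from the platform annotation (34885 of 45281 probes had 1). For each gene the probe with the highest mean was kept, unnamed probes stayed, and the lower 50% of 29453 features was left out, removing means below 7.309. Genotypes, taken from the genotype label, entered limma 3.58.1 (R 4.3.3; lmFit, eBayes with trend), with Benjamini-Hochberg adjustment over 14726 features. A further fit took every probe without a filter. The procedure was tested on simulated data, where recovery was required only for changes larger than those seen for the markers.

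The markers and gene lists were chosen with earlier results of these data known. Named genes were all markers, up to 4 members of each list with the smallest unadjusted p, and the 5 genes most correlated with Krt14 and with Acta2. Acta1, Krt10, Lor, Krtdap, Ivl, Rgs5, Krt8, the dim luminal genes, Tpm1, Actn1 and the hemidesmosome genes were named outside this rule, after their values were seen. Replicate numbers follow deposit order and pair no samples. Alternatives were other filters and probe summaries, normexp subtraction, quantile normalization, other variance settings, array weights, covariates and omission of single arrays.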

Additional observations from a re-analysis of the deposited data

Results flagged for a closer look

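Of 44 groups of values examined (20 probes and 2 class means in each genotype), 3 held an array whose gap to its nearest neighbour was large for the group's range by Dixon's test, where chance gives about 1 in 20. For Krt14, PyMT/SIRT6 replicate 1 read 12.03 while the next highest of its genotype read 11.48. For the near-background Myh11 probe ILMN_1224007, PyMT replicate 6 read 7.32 and the next 7.16. For the Oxtr probe ILMN_2543061, PyMT replicate 4 read 7.22 and the next lowest 7.34. The Myh11 and Oxtr values lie at or beside the background level.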

How the results depend on the processing

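No marker passed the adjusted threshold under any of the 24 alternatives run. Of 212 marker differences recomputed, 207 kept their direction. The 5 that turned were near 0: Oxtr with array weights (0.007) and without the 4 muscle-rich arrays (0.017), and, leaving out single arrays, Oxtr (range −0.041 to 0.003) and Trp63 (range −0.13 to 0.035). The number of features called in the whole table was 2, and it was 4 with the mean of a gene's probes, with normexp or with array weights, 1 with deposit order as a block and 0 without the muscle-rich arrays, an alternative added after seeing the data. Leaving out single arrays gave 1 to 3. The number of markers with an unadjusted p under 0.05 was 4, between 1 and 5 when single arrays were left out, and 1 without the muscle-rich arrays. The causes were not tested. No paired analysis was possible because the labels give no replicate numbers. With the limit at the 99th percentile of receptor probes 7 member probes were near background. Probes without visible signal give no limit on a difference in RNA.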
